A study of Caenorhabditis elegans with 2 samples.

Results

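The genes described here are the small nuclear RNA (snRNA) genes of *Caenorhabditis elegans*, set against where the transcription factor TRA-1 was found in chromatin. Members were all genes given the biotype snRNA in the Ensembl release 115 annotation of WBcel235, which came to 129 of 46890 nuclear genes. TRA-1, a zinc-finger protein of the GLI family that ends the somatic sex determination pathway, was located by ChIP-seq, that is, chromatin immunoprecipitation followed by sequencing, in 1 group of 2 biological replicates. Both were whole L4 larvae of strain DZ840, aged 48 h and synchronized by starving hatchlings at L1 after bleaching. They carried the tra-1 allele ez72 on III, a CRISPR insertion of a biotag::GFP::TEV::3xflag tag at the gene's own locus, and the tagged protein was precipitated with an antibody against GFP after sonication. Sex was not collected, and the samples hold all tissues together, so no site can be given to a cell type or to 1 sex. Nothing in the design is a second condition, so no comparison between conditions was made.

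Small nuclear RNAs are short noncoding RNAs that work as ribonucleoprotein particles (snRNPs). The spliceosomal ones recognise splice sites and the branch point and carry out splicing, and most wear a ring of Sm proteins bound to a uridine-rich site. In animals their promoters are read by the SNAPc complex at a proximal sequence element upstream of the start, and some are transcribed by RNA polymerase II and others, the U6 type, by RNA polymerase III with a TATA box. In nematodes, spliced leader RNAs, which donate a short leader to the 5′ ends of other transcripts, are snRNPs too. The annotation names 18 of the members as sls-2 genes (the second spliced leader), 12 as sls-1 genes (the first spliced leader) and 10 as smy genes (SmY RNAs, found with spliced leader particles). The other 89 carry no class name. They were therefore put into families by the sequence of the gene alone, joining genes at 80% identity or more, which gave 11 families of 2 or more genes and 20 single genes. Families are named here by the length of the commonest member.

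The letters inside the genes show what the families are made of. The genes printed next are bound members of 2 families, F08H9.11 of the 165-bp family (chromosome V, minus strand) and sls-2.1 of the 110-bp sls-2 family (II, plus strand), both from the RefSeq genome sequence of WBcel235.
F08H9.11: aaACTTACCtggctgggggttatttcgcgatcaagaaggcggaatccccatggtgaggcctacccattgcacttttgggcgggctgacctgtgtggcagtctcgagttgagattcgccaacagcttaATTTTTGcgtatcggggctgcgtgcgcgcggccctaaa
sls-2.1: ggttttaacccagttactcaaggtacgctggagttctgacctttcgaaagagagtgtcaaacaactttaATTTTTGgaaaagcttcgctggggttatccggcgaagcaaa
Capitals mark ACTTACC, letters known from the 5′ end of U1 RNA, and ATTTTTG, the letters of an Sm site. ACTTACC was in 12 of the 13 genes of the 165-bp family and in no other. CCTTTTA, known from the loop of U5 RNA, was in 11 of the 12 genes of the 122-bp family, and GTAGTAT, known from U2 RNA, was in 18 of the 19 genes of the 187-bp family. ATTTTTG was in all 13 genes of the 165-bp family, all 19 of the 187-bp family, all 5 of the 144-bp family and all 6 of the 77-bp smy family, in 11 of the 12 genes of the 122-bp family and in 12 of the 15 genes of the 110-bp sls-2 family. It was in 0 of the 23 genes of the 102-bp family and in 0 of the 10 genes of the 98-bp sls-1 family. Only these exact letters were searched, so a gene without a match may still hold a variant of the site. Among 5970 noncoding genes of 60 to 200 bp outside the snRNA, tRNA and snoRNA classes, ACTTACC was in 0.251% and ATTTTTG in 4.56%. The matches were read on the gene strand and are a description; the annotation gives no U class.

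TRA-1 sites lay at a minority of snRNA genes, in 6 of the 8 families of 5 or more genes. A gene was called bound when the summit of a site of the authors' conservative thresholded list of both replicates (the main list, 2703 sites) lay in the gene or within 100 bp of it. By that rule 20 snRNA genes were bound (15.5%, 95% Wilson interval 10.3 to 22.7) and 109 were not. The bound share was 4.27% over all annotated genes. It was 6.98% over 5970 noncoding genes of 60 to 200 bp that were not snRNA, tRNA or snoRNA genes. The first of these shares takes in 15363 piRNA genes of 21 bp, of which 0.0781% were bound. The second leaves out the tRNA and snoRNA genes, given below. The interval lies above both background shares as so defined. It lies far below the share of tRNA genes, of which 292 of 612 were bound (47.7%, 43.8 to 51.7), and overlaps that of small nucleolar RNA genes, of which 71 of 346 were bound (20.5%, 16.6 to 25.1). Of microRNA genes 7 of 261 were bound (2.68%, 1.31 to 5.43). The 20 genes stood at 19 sites, which made up 0.703% of the main list (0.45 to 1.1). No site at an snRNA gene was within 100 bp of a tRNA, snoRNA or rRNA gene. These intervals cover counting error only, and genes of a family share sequence, so they are not independent.

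**Figure D1:**
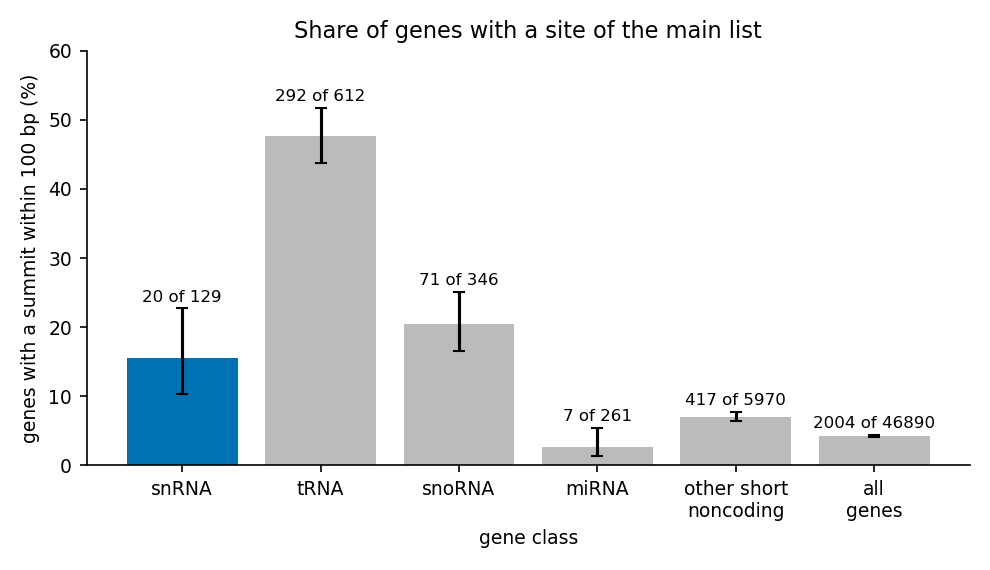
The percentage of genes with a main-list summit within 100 bp is plotted for snRNA genes and for other gene classes, with 95% Wilson intervals as error bars and the counts above each bar. The snRNA bar (20 of 129) stands between those of all genes (2004 of 46890) and tRNA genes (292 of 612), and its interval overlaps that of snoRNA genes (71 of 346).

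The sls-2 genes held 3 of the 4 strongest sites. Signal here means the peak value the authors deposited, whose scale is not stated and which is used to order sites of 1 list. The highest lay at sls-2.1 (II, 5844865 to 5844974, plus strand), which had 202.5 in replicate 1 and 172.9 in replicate 2, each on the scale of its own ranked list, and 351.8 in the main list, rank 46. At sls-2.2 (II, 5543598 to 5543707, plus) it was 154.0 in replicate 1 and 98.9 in replicate 2, with 264.1 in the main list. At sls-2.4 (I, 4172206 to 4172315, plus) it was 113.2 in replicate 1 and 88.5 in replicate 2, with 221.4 in the main list. All 3 genes stood outside protein-coding genes and were called in each replicate's own thresholded list. The other 2 bound sls-2 genes were much weaker. At sls-2.7 (I, 9057890 to 9057999, minus) the signal was 52.9 in replicate 1 and 40.8 in replicate 2, and only replicate 1 called the site. At sls-2.8 (III, 12250465 to 12250575, plus) it was 41.6 in replicate 1 and 39.3 in replicate 2, and neither replicate called the site alone.

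Among sls-2 genes the share bound was 5 of 18 (27.8%, 12.5 to 50.9), and all 5 were among the 15 genes of the 110-bp family. In contrast, 0 of the 12 sls-1 genes and 0 of the 10 smy genes were bound, which allows shares of up to 24.2% and 27.8%; the 3 Wilson intervals overlap. The sls-1 genes lay on chromosome V between 17118154 and 17132107, and 10 of them share 1 sequence of 98 bp. None of the 12 had even a ranked peak within 100 bp. The median share of unique 50-base stretches in these genes and their flanks of 100 bp was 0%, against 100% in smy genes. Whether repeated sequence bears on the absence of peaks at sls-1 was not tested.

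The 165-bp family had 5 bound genes of 13 (38.5%, 17.7 to 64.5). It includes sup-6 and sup-39, known from genetics as U1 RNA genes whose mutations suppress a splicing defect. At sup-6 (II, 12944803 to 12944967, minus, in an intron of F58G1.7) the signal was 88.4 in replicate 1 and 97.4 in replicate 2, with 195.5 in the main list, and each replicate called the site. At sup-39 (II, 6968394 to 6968558, minus, in an intron of C15F1.5) it was 52.9 in replicate 1 and 55.3 in replicate 2, with 102.7 in the main list, and replicate 2 alone called it. This summit lay 817 bp upstream of the nearest protein-coding start, that of eif-2Bgamma. It also lay 2792 bp upstream of the start of tra-2, a membrane receptor gene that acts above tra-1 in sex determination. It counted for a second member as well, mir-1831 (II, 6968530 to 6968551, minus), a 22-bp gene inside sup-39 that both annotations class as snRNA despite its microRNA name.

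The other bound genes of this family lay on chromosome V and had signals below the main-list median. At F08H9.11 (14468569 to 14468733, minus) the signal was 43.8 in replicate 1 and 54.4 in replicate 2, and each replicate called the site. At F08H9.10 (14463188 to 14463352, minus) it was 47.7 in replicate 1 and 53.8 in replicate 2, and at T08G5.11 (14028471 to 14028635, minus) it was 35.4 in replicate 1 and 45.8 in replicate 2. Neither replicate called these last sites alone. F08H9.10 overlaps an exon of the protein-coding gene F08H9.3, and its summit was 65 bp inside the start of that gene.

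The 102-bp family had 4 bound genes of 23 (17.4%, 6.98 to 37.1). At W05B2.8 (III, 10989679 to 10989780, plus, in an intron of dhc-4, a dynein heavy chain gene) the signal was 188.4 in replicate 1 and 122.0 in replicate 2, with 310.7 in the main list, rank 77. At C28A5.7 (III, 4426854 to 4426955, minus, in an intron of C28A5.6) it was 105.8 in replicate 1 and 102.9 in replicate 2, with 195.4 in the main list. At F54D8.7 (III, 5080798 to 5080898, minus) it was 55.8 in replicate 1 and 61.0 in replicate 2, with 106.7 in the main list. Each replicate called all 3 of these sites. At R07E5.16 (III, 4414185 to 4414286, plus, in an intron of mpc-1) it was 45.9 in replicate 1 and 51.2 in replicate 2, with 99.1 in the main list, and replicate 2 alone called it.

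The 122-bp, 144-bp and 187-bp families and 2 of the 20 single genes, mir-1831 being 1 of them, held the other bound genes. In the 122-bp family, 2 of 12 were bound, both on chromosome IV. F38E11.10 (9444642 to 9444763, plus) had a signal of 60.4 in replicate 1 and 39.4 in replicate 2, and F07C6.5 (12795584 to 12795705, plus, in an intron of pin-2) had 45.7 in replicate 1 and 33.0 in replicate 2. The site at F07C6.5, 80.4 in the main list, was the weakest of the 19. In the 144-bp family, 1 of 5 was bound, C52E4.8 (V, 11980118 to 11980261, plus), with 77.9 in replicate 1, 49.9 in replicate 2 and 127.9 in the main list. Its summit was also 383 bp upstream of snr-4, which encodes an Sm protein. In the 187-bp family, 1 of 19 was bound (5.26%, 0.935 to 24.6), F11A5.14 (V, 16225701 to 16225887, minus), with 45.6 in replicate 1 and 45.8 in replicate 2. Of the single genes, M163.13 (X, 14476867 to 14476946, plus) was bound, with 56.0 in replicate 1, 63.4 in replicate 2 and 113.8 in the main list. Both replicates called it.

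**Figure D2:**
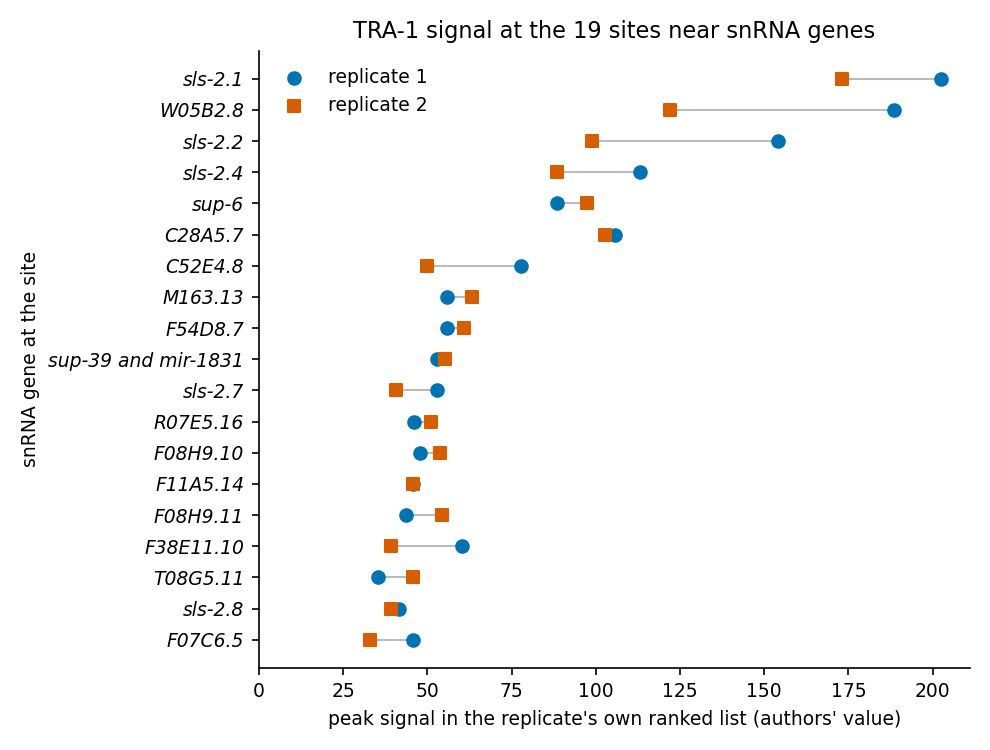
Each row is 1 of the 19 sites, ordered from the highest main-list signal at the top, and the points give the peak signal in the ranked list of replicate 1 (circle) and of replicate 2 (square), each on its own list's scale. The 6 uppermost rows lie at 88.4 or above in both replicates, and the other 13 lie at 77.9 or below.

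Signals at snRNA genes were ordinary for the main list, with a few strong exceptions. The median over the 19 sites was 102.7, against 105.3 over the whole main list, and 4 of the 19 were among its 270 strongest sites. The ratio of replicate 1 to replicate 2 ran from 0.772 to 1.56 with a median of 1.03, against a median of 1.17 over the main list. The replicates' lists have scales of their own, so the ratio is read only against that value. The ratio was within 2-fold at all 19 sites and at 94.4% of the 2664 main-list sites with a peak in both. The main list keeps sites on which the replicates agree in rank, so both shares are partly set by that choice. The score is a whole number made from the irreproducible discovery rate (IDR), higher where the replicates agree better in rank, and it was at its top value of 1000 at 16 of the 19 sites, against 75.1% of the main list. At an IDR of at most 0.001 stood 10 of the 19 sites and 1321 of the 2703 in the main list.

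Each replicate's own thresholded list held fewer of these genes. Of the 20 bound genes, 9 were called in both replicates (45.0%), 3 in replicate 1 alone, 4 in replicate 2 alone and 4 in neither. For comparison, the share called in both was 49.7% for bound tRNA genes, 76.1% for bound snoRNA genes and 41.6% for all bound genes. Replicate 1 called 12 snRNA genes (9.3%, against 2.85% of all genes), every one of them bound in the main list. Replicate 2 called 16 (12.4%, against 2.54% of all genes), of which 13 were bound in the main list and K09C6.12, sls-2.18 and Y9C9A.111 were not. The second thresholded list of both replicates called 22 (17.1%, against 4.96% of all genes). It left out F07C6.5 and F08H9.10 and added K09C6.12, sls-2.18, F10D2.13 and T27E4.10, named here because they make up the whole difference.

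By chromosome, bound genes were 5 of 13 on III (38.5%, 17.7 to 64.5), 5 of 16 on II (31.2%, 14.2 to 55.6), 2 of 16 on I, 5 of 40 on V (12.5%, 5.46 to 26.1), 2 of 41 on IV (4.88%, 1.35 to 16.1) and 1 of 3 on X. The interval of chromosome III does not overlap that of IV, but the families are spread unevenly over the chromosomes. Shares of all genes bound by chromosome were not computed, so a difference particular to snRNA genes cannot be read from this. By position, 7 of 56 genes in introns were bound (12.5%, 6.19 to 23.6), 12 of 62 outside protein-coding genes (19.4%, 11.4 to 30.9) and 1 of 11 overlapping an exon, with intervals that overlap. Shares of all genes by these positions were not computed either. Of the 19 summits, 5 lay within 500 bp of a protein-coding start (26.3%), against 31.0% of the main list.

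Copies of 1 RNA differed in whether they were bound. The sequence of the 102-bp gene W05B2.8 is shared letter for letter by 14 genes, and 3 more are annotated 1 base shorter with the same letters, so that the same RNA stands at 17 places in the genome. Of these, 4 were bound, all of them among the 6 on chromosome III, while 0 of the 10 on IV were, and the 1 on V was not. Copies on IV were clustered, with K09B11.11 to K09B11.16 standing together in introns of mam-3. In the 100 bases before the start these were 79.0 to 97.0% identical to one another, so they are not independent cases. Among the 17 genes, 15 lie in introns, 3 of the bound ones included. Unique 50-base stretches made up 48.6 to 77.1% in the bound copies and 50.2 to 72.3% in the unbound ones, so the ranges overlap. Of the 13 unbound copies, 8 had no peak of the joint ranked list within 100 bp, among them Y9C9A.111, which replicate 2's own list called. K09C6.12 (V, 859091 to 859192, plus, in an intron of K09C6.2) came closest to being called, with a score of 828 where the main list ends at 830. Its signal was 33.0 in replicate 1 and 51.2 in replicate 2, with 89.1 in the joint ranked list.

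What differs between these copies is the DNA around them, and the 100 bases before the start are printed for the 4 bound copies and then for 2 unbound ones, K09C6.12 and F54C8.8 (III, plus strand). Each is written 5′ to 3′ on the strand of the gene, from the RefSeq sequence, and ends at the base before the start.
W05B2.8: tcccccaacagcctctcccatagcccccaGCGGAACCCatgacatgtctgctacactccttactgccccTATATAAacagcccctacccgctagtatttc
C28A5.7: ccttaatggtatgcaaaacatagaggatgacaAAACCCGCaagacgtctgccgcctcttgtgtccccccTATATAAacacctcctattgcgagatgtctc
R07E5.16: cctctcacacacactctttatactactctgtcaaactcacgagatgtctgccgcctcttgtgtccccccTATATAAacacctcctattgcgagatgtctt
F54D8.7: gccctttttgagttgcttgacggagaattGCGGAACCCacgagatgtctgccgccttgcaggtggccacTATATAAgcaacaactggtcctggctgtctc
K09C6.12: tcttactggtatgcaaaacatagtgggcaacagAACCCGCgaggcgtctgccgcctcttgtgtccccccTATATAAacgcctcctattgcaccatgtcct
F54C8.8: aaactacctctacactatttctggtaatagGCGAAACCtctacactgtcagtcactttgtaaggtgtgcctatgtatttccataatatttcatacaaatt
Capitals mark TATATAA and any of 10 words of 7 bases described next. All 4 bound copies held TATATAA, each starting 31 bases before the gene, as did 15 of the 23 genes of the family, 11 of them unbound. The word was chosen after the windows had been read, and it was in 2.43% of the same windows of all genes on the gene strand and in 3.52% on either strand. Upstream identity between a bound and an unbound copy of the 14 ran from 47.8 to 85.0% over 33 pairs (median 55.2), and between bound copies from 57.4 to 74.1% over 3 pairs, so the ranges overlap.

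Most snRNA genes shared short words upstream. The 10 words of 7 bases found before the starts of genes in the largest number of families, chosen without the sites, fall into 2 sets. In the first set were AACCCGC (in 33 genes), CGGAACC (in 32 genes), GCGGAAC (in 32 genes), GGAACCC (in 31 genes), CGAAACC (in 18 genes), AAACCCG (in 17 genes), GAAACCC (in 17 genes) and GCGAAAC (in 16 genes), which overlap one another as variants of 1 longer run. In the second were TGTCGGT (in 26 genes) and GTCGGTA (in 24 genes), which overlap each other. At least 1 of the 10 stood on the gene strand in 16 of the 20 bound genes (80%, 58.4 to 91.9) and in 62 of the 109 unbound ones (56.9%, 47.5 to 65.8), and a search of both strands gave the same counts. In windows of all 46886 genes with a full window the share was 2.31% on the gene strand and 4.41% on either strand. The words were picked from these genes, so their excess over all genes describes the choice. The median position of a word was 60 bases before the start, the place where a proximal sequence element is found in animals. AACCCGC alone was in 9 bound genes (45.0%, 25.8 to 65.8) and in 24 unbound ones (22.0%, 15.3 to 30.7). All these intervals for bound and unbound genes overlap. The windows were richer in G and C in bound genes, with a median of 53.5%, and in unbound ones, with 49.0%, than in all genes, with 31.0%.

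The upstream windows of the 5 bound genes of the 165-bp family, which hold sup-6 and sup-39, are printed next, and 1 of them lacks the words. Unbound members of the family are not printed.
sup-6: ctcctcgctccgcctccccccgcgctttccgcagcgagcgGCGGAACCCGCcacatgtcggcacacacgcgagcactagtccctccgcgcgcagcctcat
sup-39: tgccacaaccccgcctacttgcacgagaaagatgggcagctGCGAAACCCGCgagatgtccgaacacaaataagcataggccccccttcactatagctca
T08G5.11: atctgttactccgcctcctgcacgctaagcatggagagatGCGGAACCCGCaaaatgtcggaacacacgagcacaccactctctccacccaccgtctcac
F08H9.10: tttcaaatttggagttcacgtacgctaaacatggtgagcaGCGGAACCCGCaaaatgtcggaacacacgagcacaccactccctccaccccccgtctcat
F08H9.11: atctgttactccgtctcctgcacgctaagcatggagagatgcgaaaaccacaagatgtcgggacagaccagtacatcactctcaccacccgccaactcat
A run of the first set stood in 4 of the 5, while F08H9.11 held none of the 10 words and was called in both replicates. At least 1 of the 10 words stood in 11 of the 13 genes of the family. Most unbound members thus held them too, and the words do not set the bound members apart. F07C6.5 and ZK897.2 on chromosome IV are exact copies of a 122-bp gene, of which F07C6.5 was bound and ZK897.2 was not, and their windows were 88.0% identical.
F07C6.5: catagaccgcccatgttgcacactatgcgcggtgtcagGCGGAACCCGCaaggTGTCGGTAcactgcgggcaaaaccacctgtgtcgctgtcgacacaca
ZK897.2: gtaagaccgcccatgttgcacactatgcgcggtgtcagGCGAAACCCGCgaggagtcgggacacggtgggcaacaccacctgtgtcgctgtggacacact
Both hold a run of the first set, and TGTCGGTA was in F07C6.5 alone. In the other pairs of exact copies with a bound gene, C52E4.8 was bound and T11F9.15 was not (52.7% identity upstream), and F38E11.10 was bound and F38E11.11 was not (54.9%). In all, 46 of the 129 genes share their whole sequence with another, 7 of the 20 bound ones and 39 of the 109 unbound ones. The core sequence known for TRA-1, TGGGTGGTC, was looked for on both strands within 50 bp of the 19 summits. It was at none in full and at 1 with 1 mismatch, that of F07C6.5, against 58 of the 2703 sites with at most 1 mismatch.

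A bound gene needed a summit in it or within 100 bp of it. Nearness to the start was therefore largely set by that rule, as the genes are short, and the positions are a description. Over the 20 genes the summit ran from 61 bp before the start to 141 bp after it, with a median of 8.5 bp after it. It was upstream of the start at 9 genes, inside at 9 and past the end at 2, sls-2.7 and the short mir-1831. The spread within a family could be as wide as that over all genes, and differences between families were not tested. In the 110-bp sls-2 family the 5 summits ran from 60 bp before the start at sls-2.1 to 129 bp after it at sls-2.7. In the 102-bp family the 4 summits lay between 18 bp before and 9 bp after the start. In the 165-bp family, 4 of the 5 lay 79 to 131 bp inside, and the fifth, F08H9.11, lay 39 bp before the start. Both summits of the 122-bp family were upstream, by 52 bp at F38E11.10 and 61 bp at F07C6.5. At 15 of the 19 sites the peak was 304 bp wide with its summit at the midpoint, so the lists may not resolve the smaller of these differences.

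**Figure D3:**
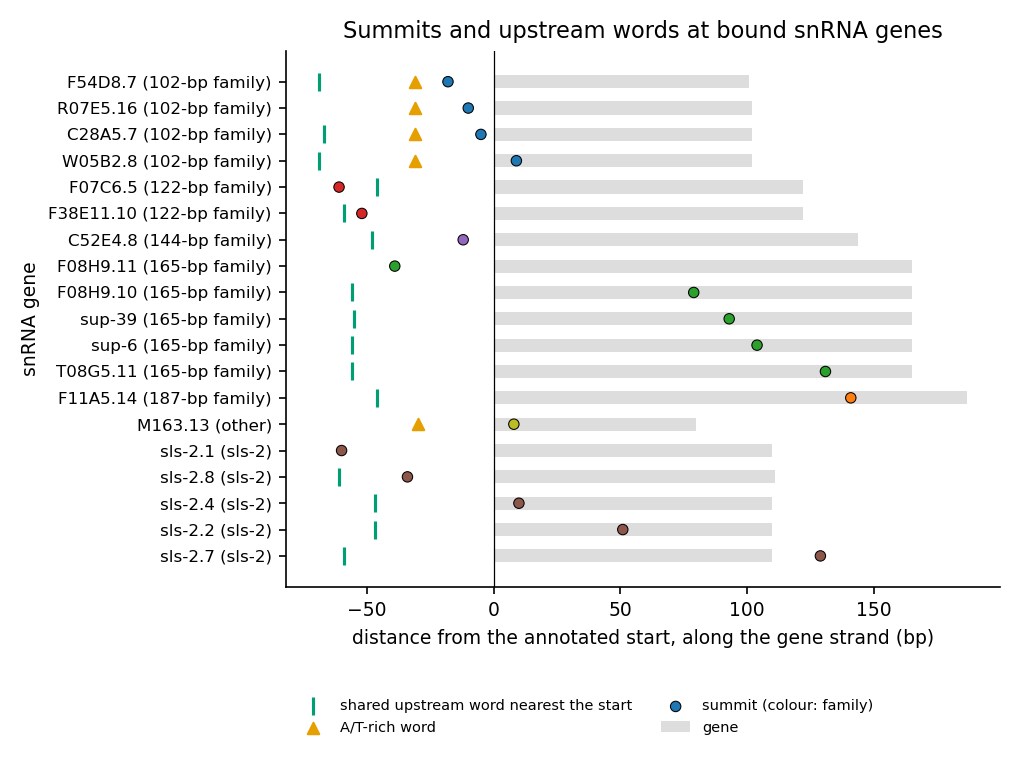
Each row is a bound snRNA gene with its family in brackets, drawn along its own strand with the annotated start at 0 bp; grey bars are the genes and circles the summits, coloured by family. Ticks mark the nearest of the 10 shared upstream words and triangles the A/T-rich word, which sits 31 bp before the start in the 4 genes of the 102-bp family, whose summits run from 18 bp before to 9 bp after the start.

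Most unbound genes had no peak below the threshold either. Of the 109, 68 had no peak of the joint ranked list within 100 bp and 41 had one, with a median score of 207. The share of all genes with a ranked peak was not computed, so these counts cannot be called few or many. Unique 50-base stretches made up under 50% at 25 unbound genes and at 1 bound gene. They were absent at 13 unbound genes and at 0 bound ones. Whether this bears on the missing peaks was not tested. The nearest main-list summit was over 10000 bp away at 79 of them and within 1000 bp at 7. After K09C6.12, the unbound genes with the highest scores were sls-2.18 (695), sls-2.15 (683), sls-2.16 (679) and Y57G11C.35 of the 187-bp family (574). At sls-2.18 the signal was 30.0 in replicate 1 and 56.2 in replicate 2, and replicate 2 alone called the site. At sls-2.15 it was 37.9 in replicate 1 and 29.9 in replicate 2, at sls-2.16 33.4 in replicate 1 and 32.8 in replicate 2, and at Y57G11C.35 28.3 in replicate 1 and 39.6 in replicate 2. The threshold separated close values. The weakest bound gene, F07C6.5, had a score of 859 and a signal of 80.4, while the strongest unbound one, K09C6.12, had a score of 828 and a signal of 89.1. Just outside the distance limit stood sls-2.9, whose nearest summit was 115 bp away, ZK1251.14 at 160 bp and F08G2.10 at 192 bp.

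**Figure D4:**
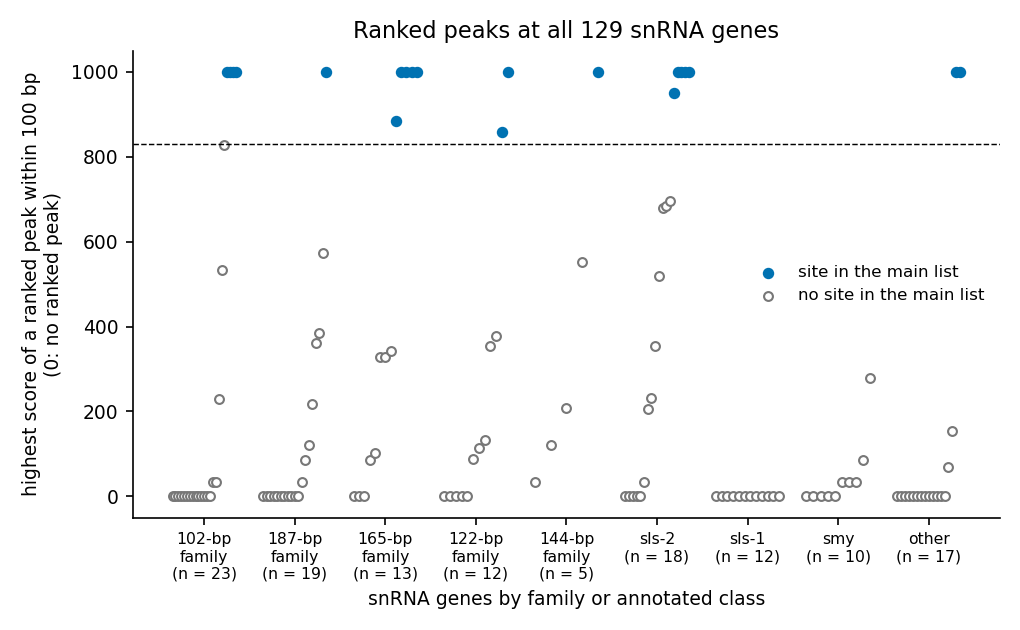
For each of the 129 snRNA genes the highest score of a joint ranked-list peak within 100 bp is plotted by family or annotated class, with filled circles for genes bound in the main list, open circles for unbound ones, 0 for no ranked peak and a dashed line at 830, the lowest score of the main list. All 12 sls-1 genes sit at 0, the highest smy gene is at 278, and the uppermost open circle, at 828, is K09C6.12.

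Protein-coding genes of snRNA transcription and snRNP assembly were looked at in the same list, and 8 of the 57 found were bound (14.0%, 7.29 to 25.3), against 11.2% of all protein-coding genes. Here a gene counted with a summit anywhere between its end and 2000 bp ahead of its start. Of the 12 genes listed under SNAPc and polymerase III initiation 1 was bound, snpc-1.3, with a signal of 55.1 in replicate 1, 56.7 in replicate 2 and 111.6 in the main list, 78 bp upstream of the start. This list was broad and also held prde-1, tofu-4, tofu-5 and gtf-2H1, so its members, snpc-1.3 included, need not act at snRNA genes. Of the 15 Sm and Lsm genes 4 were bound. They were snr-4 (the site of C52E4.8), lsm-7 (111.1 in the main list), lsm-1 (87.0) and snr-3 (70.0, 1606 bp upstream). Of the 16 snRNP protein genes, rnp-7, encoding a U1 snRNP protein, was bound with 104.1, and prp-8, encoding a core protein of the spliceosome, with 91.6. Of the 14 genes of assembly, processing and export 1 was bound, ints-8, a subunit of the Integrator complex that cleaves snRNA 3′ ends, with 161.9 in replicate 1, 165.9 in replicate 2 and 347.0 in the main list, 6406 bp inside the gene. The share over the lists lies near the background share.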

How the data were processed

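The deposited files are peak lists on ce11, per the labels: 2 thresholded lists and a ranked list of both replicates used here, and a thresholded and a ranked list per replicate. Each peak has a score, a deposited whole number whose lowest value in thresholded lists was 830, an IDR of about 0.01. The signal is the value the authors deposited, on each list's own scale. Ranked lists also give the deposited −log10 of the IDR. No source used here names an aligner or peak caller. Without read counts in the lists, sequencing depth is unknown. A replicate's signal is that of the strongest overlapping peak in its own ranked list.

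Positions were compared with Ensembl release 115, whose WBcel235 sequence ce11 shares. Names came from RefSeq by gene ID, for 129 of 129 members. Coordinates are 1-based. Shares have 95% Wilson intervals. No test between conditions was possible, and p-values were not computed. By rule, the genes named are all bound members, the 5 unbound ones with the highest scores and bound genes of 4 lists, for which 57 of 64 symbols were found. Other unbound genes (exact copies of bound ones, genes called in another list, and genes just past the distance limit) were picked with their values in view. The members and lists were chosen with earlier results of these data known. The full sequence of the 102-bp family's genes is not reported here. Calling was tested on simulated data. Alternatives were other distances, lists, thresholds, single replicates and sets of genes. Python 3.11.15, numpy 2.4.6, pandas 2.3.3 and matplotlib 3.10.9 were used.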

Additional observations from a re-analysis of the deposited data

How the results depend on the processing

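The 20 bound genes became 23 within 200 bp, 24 within 500 bp, 21 by peak overlap, 22 in the second thresholded list and 19 with genes within 100 bp joined or without mir-1831. They stayed 20 with all ranked peaks past the lowest score, and without summits near tRNA, snoRNA or rRNA genes. The count fell to 9 genes at 9 sites with the summit inside the gene, to 11 genes at 10 sites at an IDR of at most 0.001, and to 9 genes at 9 sites among main-list sites above the median signal. Leaving out genes with an exact copy left 13 bound of 83, and leaving out genes under 90% unique, chosen after seeing the data like the run without mir-1831, left 5 of 42. Shares over all genes were computed only for the main, second and single-replicate lists at 100 bp. Whether the excess over all genes holds under the other settings was therefore not assessed. Without replicate 2, the list of replicate 1 gave 12 genes at 14 sites; without replicate 1, that of replicate 2 gave 16 genes at 15 sites. Counting single genes as families, each gave 6 families with a bound gene, against 8, and 3 bound pathway genes, against 8. At 90% identity 10 such families held a bound gene. Promoters alone gave 4 pathway genes. No paired analysis was possible because there was 1 group. Depth is unknown, so a gene without a site cannot be told from one too thinly read.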
